A study of Mus musculus with 8 samples.

Results

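Reprogramming mouse embryonic fibroblasts that carried the histone mutant K36M were compared with WT cells, both on day 8 and both in medium with Repsox at 250 nM, which blocks the kinase of the TGF-beta receptor encoded by Tgfbr1. The comparison takes 4 of the 8 RNA-seq libraries of the series, 2 of K36M cells and 2 of WT cells, and every gene of the deposited count table was considered: 26930 genes, of which 15789 passed the filter on low counts and were tested. The other 4 libraries, 2 of K36M cells and 2 of WT cells given 2.5 ng/ml TGF-beta1 in place of Repsox, entered the fit for the estimate of the spread and are used below only to set the Repsox comparison beside the same comparison under TGF-beta. All cells were driven toward pluripotency by the OKSM factors (Oct4, Klf4, Sox2 and Myc), and the labels give the medium as AGi. The labels name the WT libraries also H3. They do not say how the histone and the factors were expressed, whether cells of 1 or more embryos were pooled, or whether replicate libraries derive from separate cultures. The p-values therefore measure the spread between these libraries, which may be technical.

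Lysine 36 of histone H3 is methylated by enzymes of the NSD family, by ASH1L and by SETD2, mostly along transcribed genes and in the regions between them. A histone in which methionine replaces that lysine is known to act in a dominant way, lowering this methylation on the normal histones of the cell, and the mark is known to counteract the Polycomb complex that methylates lysine 27. Blocking the TGF-beta receptor is known to favour the loss of fibroblast identity during reprogramming, so that the comparison under Repsox asks what the mutant histone does when that signal is already inhibited.

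The 2 K36M libraries held 14935266 and 12033198 counts and the 2 WT libraries 14447449 and 12532258. With Benjamini-Hochberg adjustment over all genes tested, edgeR's quasi-likelihood test called 8805 genes (55.8%) at an adjusted p below 0.05, of which 4551 (28.8% of those tested) were higher and 4254 (26.9%) lower in K36M. A change of at least 2-fold was called for 1894 genes higher (12.0%) and 1964 genes lower (12.4%). The libraries of K36M and WT did not overlap for 75.4% of the genes tested. The median log2 fold change over all genes tested was 0.04. Each list below is to be read against these shares. In every list, a gene that passed the filter only through its level in 1 group had to be higher in that group. Levels are CPM, the count relative to the TMM-scaled library size, in library 1 and library 2 of each group, the ± after a log2 fold change is its standard error from the fit, and coordinates are on mm9. Unless stated otherwise, both K36M libraries lay on the same side of both WT libraries for each gene named with a call, and genes whose names follow a count of 5 or fewer in brackets were named after their values were seen.

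The marker genes of fibroblasts and epithelia differed between the groups. The 6 fibroblast markers summed to 172 and 201 CPM in K36M, against 3208 and 2950 CPM in WT, and all 6 were lower. The 4 epithelial markers summed to 4013 and 3835 CPM in K36M, against 1760 and 1677 CPM in WT, and all 4 were higher. Of the 7 pluripotency markers 5 were higher and none was lower, with sums of 1116 and 1090 CPM in K36M against 978 and 821 CPM in WT. Macrophage markers summed to 79.5 and 76.6 CPM in K36M and 25.3 and 24.8 CPM in WT, with 2 of the 5 at 0 counts in K36M, and erythroid and adipocyte markers summed to 0.0804 CPM or less in K36M and 2.09 CPM or less in WT. The larger lists for these identities, which are not described further, gave 44 of 49 tested mesenchymal genes lower, 47 of 52 interferon genes higher and 38 of 44 epithelial genes higher. In these bulk samples, fewer cells of a type and less RNA of a gene per cell cannot be told apart, here and in every result below.

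The reprogramming factors themselves were measured at lower levels in K36M. Pou5f1 (Oct4) had 209 and 206 CPM in K36M, against 420.4 and 375 CPM in WT (log2 fold change -0.94 ± 0.07, adjusted p = 1.32e-10). Sox2 had 182 and 173 CPM in K36M, against 288 and 266 CPM in WT (log2 fold change -0.64 ± 0.07, adjusted p = 1.87e-07). Klf4 had 177 and 173 CPM in K36M, against 481 and 445 CPM in WT (log2 fold change -1.40 ± 0.07, adjusted p = 2.2e-13). Myc had 129.9 and 138 CPM in K36M, against 379 and 349.8 CPM in WT (log2 fold change -1.45 ± 0.07, adjusted p = 8.83e-14). All 4 were lower in both K36M libraries, and gene counts cannot tell factors supplied from outside from the cells' own transcripts. Of the genes for histone H3.3, H3f3a had 57.3 and 56.5 CPM in K36M, against 101 and 102 CPM in WT (log2 fold change -0.84 ± 0.08, adjusted p = 1.55e-08), and H3f3b had 266 and 269 CPM in K36M, against 247 and 246 CPM in WT and was not called (log2 fold change 0.12 ± 0.07, adjusted p = 0.16). Counts cannot tell a mutant H3 transcript from a normal one. The part of the factor levels in the differences below was not tested. Of the receptor genes for TGF-beta, Tgfbr1, whose product Repsox inhibits, had 24.6 and 28.2 CPM in K36M, against 35.9 and 40.4 CPM in WT (log2 fold change -0.53 ± 0.11, adjusted p = 0.000244). Tgfbr2, chosen after its values were seen, had 17.4 and 19.9 CPM in K36M, against 99.2 and 87.3 CPM in WT (log2 fold change -2.32 ± 0.10, adjusted p = 2e-14).

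**Figure D1:**
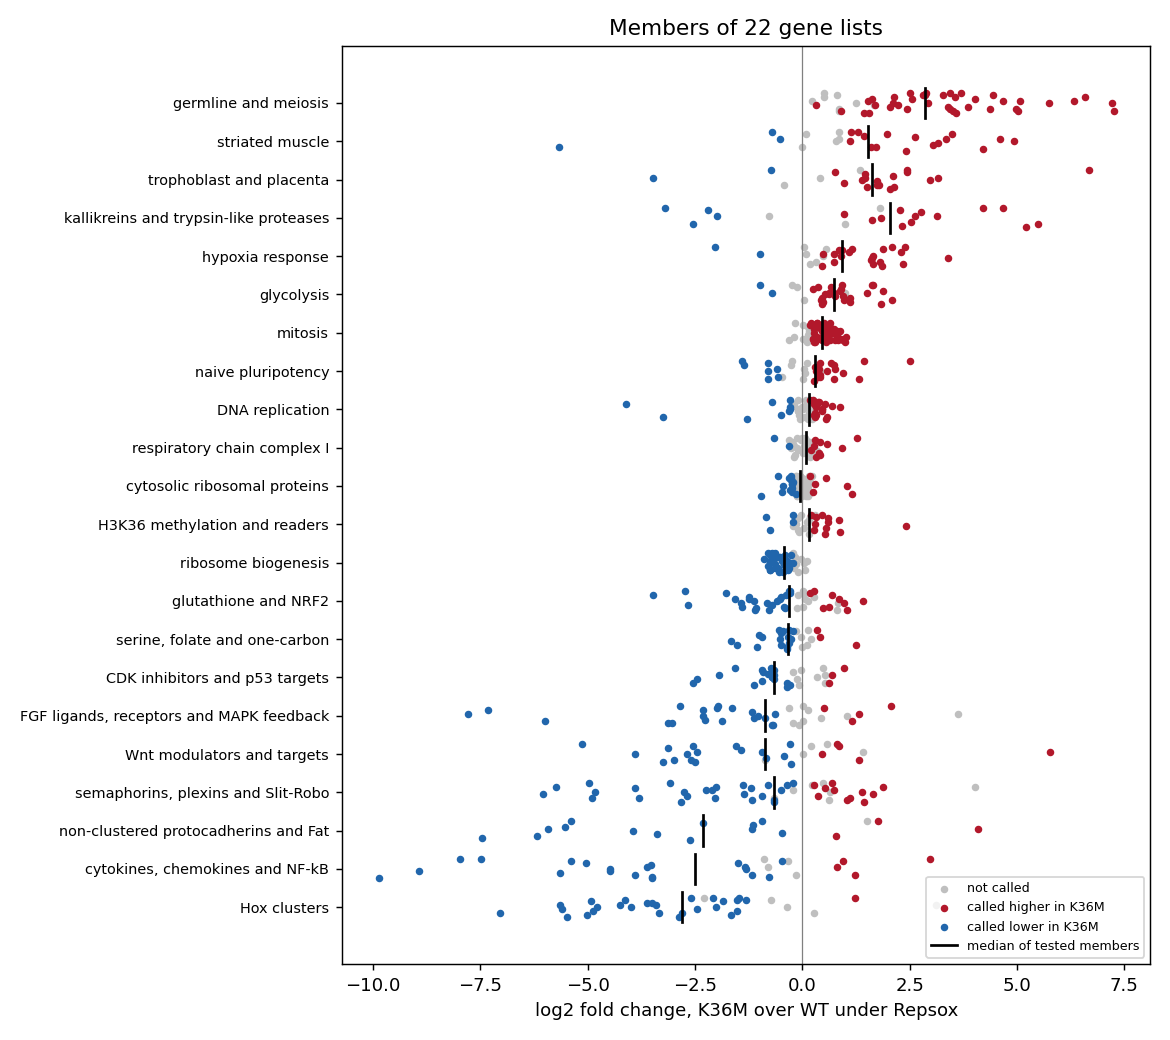
Log2 fold change of K36M over WT under Repsox (x axis) for each tested member of 22 gene lists (y axis), 1 point per gene, coloured by its call, with a bar at each list's median. Germline genes sit at the far right with a median of 2.86, Hox genes at the far left with a median of -2.80, and mitosis and ribosome biogenesis genes form narrow groups mostly on opposite sides of 0.

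Among the genes with the largest increases by fold at moderate or high expression, several act at the surface of epithelial cells or in their uptake of nutrients. Klk7, a kallikrein protease (chromosome 7, 51066814 to 51071729), had 63.1 and 62.8 CPM in K36M, against 0.944 and 1.89 CPM in WT (log2 fold change 5.49 ± 0.21, adjusted p = 1.82e-15). Slc39a4, the zinc importer ZIP4 (chromosome 15, 76442815 to 76447322), had 120.4 and 113 CPM in K36M, against 12.1 and 6.95 CPM in WT (log2 fold change 3.60 ± 0.17, adjusted p = 4.93e-14). Folr1, a folate receptor, had 86.1 and 78.4 CPM in K36M, against 9.17 and 9.67 CPM in WT, 8.74-fold higher. Pramef12, of the PRAME family, had 78.7 and 80.8 CPM in K36M, against 5.26 and 6.19 CPM in WT (log2 fold change 3.80 ± 0.14, adjusted p = 4.57e-16). For these 4 genes both WT libraries were low and both K36M libraries far above them. Wnt7b, a Wnt ligand, had 175 and 183 CPM in K36M, against 23.6 and 21.6 CPM in WT (log2 fold change 2.98 ± 0.10, adjusted p = 2.06e-16). Plcg2, a phospholipase C, had 339.6 and 337 CPM in K36M, against 45.8 and 55.8 CPM in WT, 6.66-fold higher. Tns4, a tensin of focal adhesions, was 7.76-fold higher, Vill, a villin-like actin-binding protein, 9.7-fold, Evpl, the cornified-envelope protein envoplakin, 6.76-fold, and Hpn, the membrane protease hepsin, 6.19-fold. The remaining genes of the 15 were Dkkl1 (7.59-fold higher), Pygl, a glycogen phosphorylase (7.39-fold), Adamts9, a metalloprotease of the matrix (6.7-fold), Npr1, a natriuretic peptide receptor (6.04-fold), and Neurl1b, a ubiquitin ligase (6.07-fold).

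The 15 largest decreases by fold, under the same rule, included genes of secreted antagonists, guidance cues, cadherin-like adhesion proteins and the matrix around them. Grem1, a secreted antagonist of BMPs (chromosome 2, 113586321 to 113598803), had 3.03 and 2.82 CPM in K36M, against 193 and 253 CPM in WT (log2 fold change -6.25 ± 0.17, adjusted p = 6.79e-18). Slit3, a guidance ligand of Robo receptors (chromosome 11, 34934726 to 35522009), had 2.96 and 2.9 CPM in K36M, against 202 and 185 CPM in WT (log2 fold change -6.04 ± 0.16, adjusted p = 4.01e-18). Fst, the activin antagonist follistatin, had 2.3 and 1.69 CPM in K36M, against 75.2 and 65.4 CPM in WT (log2 fold change -5.11 ± 0.16, adjusted p = 4.83e-17). Thbs2, a thrombospondin of the matrix, had 17.6 and 18.2 CPM in K36M, against 555 and 542 CPM in WT, 30.6-fold lower in K36M. Fzd1, a Wnt receptor, was 31.3-fold lower, Igfbp5, which binds insulin-like growth factors, 34.1-fold, Pcdh7, a protocadherin, 42-fold, Fat4, a giant cadherin, 46.5-fold, Fbn2, a fibrillin, 32.3-fold, and Shisa3 73-fold. Shisa3 and Fat4 rest on 6 and 12 counts over both K36M libraries. For the other 5 of the 15, leaving out 1 library moved the fitted fold by more than 1.5 times. Flrt2, an adhesion protein that binds guidance receptors, had 1.05 and 2.65 CPM in K36M, against 66.9 and 79.6 CPM in WT, with a log2 fold change of -5.35 that was -6.10 without K36M library 2 and -4.78 without K36M library 1. Pappa, a protease of insulin-like growth factor binding proteins, had 0.527 and 1.61 CPM in K36M, against 33.8 and 32.5 CPM in WT (log2 fold change -5.02, and -5.95 without K36M library 2 and -4.36 without K36M library 1). Masp1, a protease of the lectin pathway of complement, had 0 and 0.804 CPM in K36M, against 31.2 and 38.5 CPM in WT (log2 fold change -6.55, and -11.86 without K36M library 2, a fit against a library at 0 counts and no bound, and -5.42 without K36M library 1). Frem1, a basement membrane protein, had 0.0658 and 0.161 CPM in K36M, against 14 and 8.84 CPM in WT (WT over K36M ratio 107, exact 95% interval 36.2 to 519.6). Pcdh18 had 0.132 and 0 CPM in K36M, against 13.4 and 15.6 CPM in WT (WT over K36M ratio 199.7, exact 95% interval 54.9 to 1655). Leaving out 1 library moved the fitted log2 value of Frem1, -6.61, to -7.25 without K36M library 2 and -6.08 without K36M library 1. That of Pcdh18, -7.47, moved to -10.55 without K36M library 1, a fit against a library at 0 counts and no bound, and -6.68 without K36M library 2.

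In absolute CPM the largest increases included imprinted genes and genes for the import and use of glucose. H19, an imprinted noncoding RNA, had 11993 and 11231 CPM in K36M, against 3162 and 2772 CPM in WT (log2 fold change 1.97 ± 0.19, adjusted p = 1.09e-08). Igf2, the growth factor gene beside it, had 3866 and 3809 CPM in K36M, against 1269 and 1191 CPM in WT (log2 fold change 1.64 ± 0.16, adjusted p = 1.06e-08). Peg10, an imprinted gene derived from a retrotransposon, had 8148 and 8214 CPM in K36M, against 3986 and 4399 CPM in WT (log2 fold change 0.96 ± 0.09, adjusted p = 2.74e-09). The glucose transporter genes followed: Slc2a1 (GLUT1) had 2072 and 1990.2 CPM in K36M, against 667 and 641 CPM in WT (log2 fold change 1.63 ± 0.06, adjusted p = 4.73e-16), and Slc2a3 (GLUT3) had 2559 and 2593 CPM in K36M, against 924 and 881 CPM in WT (log2 fold change 1.51 ± 0.06, adjusted p = 1.14e-15). The groups did not overlap for any of these 5 genes. Aldoa, the aldolase of glycolysis, was 2.15-fold higher, Klhl13 4.86-fold and Fem1b 2.33-fold, and Klhl13 and Fem1b encode substrate receptors of ubiquitin ligases. Myh9, a nonmuscle myosin, was 1.31-fold higher. Among the largest decreases in CPM were Ccnd2 and Ccnd1, D-type cyclins that partner CDK4 and CDK6 at entry into the cell cycle. Ccnd2 had 116 and 128 CPM in K36M, against 2114 and 2075 CPM in WT (log2 fold change -4.10 ± 0.07, adjusted p = 3.08e-21). Ccnd1 had 72.8 and 78.8 CPM in K36M, against 728 and 699 CPM in WT (log2 fold change -3.24 ± 0.07, adjusted p = 3.31e-19). Ccnd3, the remaining D-type cyclin, chosen after its values were seen, went the other way, with 239.8 and 227 CPM in K36M, against 176 and 145 CPM in WT (log2 fold change 0.54, adjusted p = 2.01e-05). Thbs1, a matrix glycoprotein, had 61.7 and 82.1 CPM in K36M, against 1295 and 1329 CPM in WT (log2 fold change -4.19 ± 0.09, adjusted p = 9.72e-20). Lrp1, an endocytic receptor, had 494 and 488 CPM in K36M, against 1816 and 1558 CPM in WT (log2 fold change -1.78 ± 0.06, adjusted p = 5.37e-16). The cytoskeletal genes Ahnak, Plec and Flna were 1.49-fold, 2.04-fold and 1.96-fold lower, Hspa8, a chaperone, 1.45-fold, the nuclear noncoding RNA Malat1 1.22-fold and Eef1a1, an elongation factor, 1.12-fold. The call of Eef1a1 was lost without K36M library 1 and without K36M library 2 (adjusted p = 0.0599 and 0.06).

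Hox genes encode the homeodomain factors that set position along the body axis, and fibroblasts keep the pattern of their origin. Of 33 tested Hox genes, 27 were lower in K36M, 1 was higher and 5 were not called, with a median log2 fold change of -2.80. The 11 genes of the Hoxa cluster summed to 9.15 and 7.88 CPM in K36M, against 34.6 and 30.4 CPM in WT. The 10 Hoxb genes summed to 11.1 and 10.4 CPM in K36M, against 44.1 and 47.4 CPM in WT, and the 9 Hoxc genes to 12.2 and 12.8 CPM in K36M, against 69.4 and 70.9 CPM in WT. The 9 Hoxd genes summed to 5.14 and 4.75 CPM in K36M, against 13.6 and 11.2 CPM in WT. All 4 clusters were thus lower in both K36M libraries, with 9 of 10 tested genes called lower in Hoxa, 8 of 10 in Hoxb, 7 of 8 in Hoxc and 3 of 5 in Hoxd. The sums take all 39 Hox genes of the table, while the calls cover the 33 that passed the filter. A Hox gene that passed only through its WT level had to be lower, so the shares are those of the genes that passed. The 3 members taken by the rule were near the limit of detection in K36M: Hoxa10 had 0.198 and 0 CPM in K36M, against 5.93 and 5.36 CPM in WT (WT over K36M ratio 52.1, exact 95% interval 17.5 to 256). Hoxa7 had 0.132 and 0.0804 CPM in K36M, against 3.51 and 4.15 CPM in WT (WT over K36M ratio 35.1, exact 95% interval 11.7 to 173). Hoxa9 had 0 and 0.241 CPM in K36M, against 3.64 and 3.48 CPM in WT (WT over K36M ratio 32.8, exact 95% interval 10.9 to 162). Leaving out 1 library moved the fitted log2 fold change of Hoxa10, -5.59, to -9.19 without K36M library 1, a fit against a library at 0 counts and no bound, and -4.77 without K36M library 2. That of Hoxa9, -4.91, moved to -8.57 without K36M library 2, a fit against a library at 0 counts and no bound, and -3.83 without K36M library 1.

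Other developmental transcription factors went both ways. Median log2 fold changes were below 0 for the other homeobox (-0.82), Sox (-1.09) and nuclear receptor (-0.39) genes. They were above 0 for the T-box and GATA (0.63), Klf and Sp (0.22) and forkhead (0.04) genes. Of 39 other homeobox genes 19 were lower and 12 higher. Irx1, of the Iroquois family, had 0.198 and 0.322 CPM in K36M, against 10.5 and 9.67 CPM in WT (log2 fold change -5.26 ± 0.36, adjusted p = 3.02e-11), and Tshz3, a teashirt factor, was 8.2-fold lower. Irx5 had 0.658 and 0.241 CPM in K36M, against 7.15 and 5.14 CPM in WT (log2 fold change -3.69, and -4.62 without K36M library 1 and -3.20 without K36M library 2). Among the 29 forkhead genes 9 were lower and 6 higher: Foxd1 had 0.988 and 0.804 CPM in K36M, against 32.2 and 35.1 CPM in WT (log2 fold change -5.20 ± 0.24, adjusted p = 2.56e-14) and Foxc1 was 17.1-fold lower, while Foxo4, a forkhead factor regulated by insulin signalling, had 176 and 162 CPM in K36M, against 52.2 and 46.1 CPM in WT (log2 fold change 1.78 ± 0.09, adjusted p = 1.58e-13). Of 14 Sox genes 9 were lower and 2 higher (Sox17 and Sox15). Sox4 had 3.23 and 4.18 CPM in K36M, against 47.3 and 37.3 CPM in WT (log2 fold change -3.53 ± 0.15, adjusted p = 8.36e-15), and Sox21 and Sox6 were 3.3-fold and 3.89-fold lower. Of the 15 T-box and GATA genes 6 were lower and 7 higher, and the mesenchymal T-box genes Tbx15 and Tbx2 were 9.47-fold and 11.7-fold lower, whereas Gata3, a factor of trophoblast and epithelium, had 78.5 and 73.6 CPM in K36M, against 26.7 and 26.5 CPM in WT (log2 fold change 1.52 ± 0.11, adjusted p = 1.29e-10). Tbx18 had 0.593 and 1.45 CPM in K36M, against 7.28 and 10.1 CPM in WT (log2 fold change -3.13, and -3.84 without K36M library 2 and -2.57 without K36M library 1). Of 21 Klf and Sp genes 11 were higher and 7 lower (higher members: 7 without K36M library 1), with Klf12 and Klf7 3.15-fold and 2.1-fold lower beside Klf4. Of 37 nuclear receptors 18 were lower and 5 higher (Nr5a1, Nr6a1, Vdr, Pparg and Rxra) (higher members: 3 without K36M library 1), with Nr2f2 (COUP-TFII) at 1.71 and 2.01 CPM in K36M, against 22 and 23.4 CPM in WT (log2 fold change -3.61 ± 0.20, adjusted p = 8.13e-13) and Thrb, a thyroid hormone receptor, 15.5-fold lower. The AP-1 and immediate early genes, which respond to growth factors, had 14 of 23 lower and 6 higher (median -0.72). Fosl1, a Fos-related subunit of AP-1, had 0.658 and 0.965 CPM in K36M, against 12.5 and 10.7 CPM in WT (log2 fold change -3.84 ± 0.29, adjusted p = 1.21e-10), and Egr1 was 5.04-fold lower.

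Genes of axon guidance and cell recognition were mostly lower. Of 44 tested semaphorins, plexins and Slit-Robo genes 26 were lower and 11 higher. Their median log2 fold change was -0.66. Sema3a, a secreted repellent, had 0.988 and 0.724 CPM in K36M, against 24 and 30.9 CPM in WT (log2 fold change -4.97 ± 0.26, adjusted p = 3.97e-13). Sema6d, a membrane semaphorin, had 0.395 and 0.885 CPM in K36M, against 34.4 and 32 CPM in WT (log2 fold change -5.73, and -6.36 without K36M library 2 and -5.21 without K36M library 1). Of 17 non-clustered protocadherins and Fat cadherins 13 were lower and 3 higher (Pcdh12, Pcdh1 and Celsr1), with a median of -2.31. Of 11 tested clustered protocadherins 9 were lower and 0 higher. Their median log2 fold change was -3.54. On the same genes DESeq2 and limma-voom also gave 9 lower and 0 higher, and no member was higher at an unadjusted p below 0.05. The highest log2 fold change of a tested member, 2.26, was not called. The list had 49 genes, of which 24 were in the table and 11 passed the filter. A gene that passed only through its WT level had to be lower, so the share is that of the genes that passed. Genes of the alpha and gamma clusters share their last exons within a cluster, so that reads can be split among them, and the 1 taken by the rule, Pcdhga9, had 117 and 122 CPM in K36M, against 329 and 320.5 CPM in WT (log2 fold change -1.44 ± 0.07, adjusted p = 1.72e-13). Ephrins and Eph receptors moved both ways, with 8 of 18 lower and 6 higher: Epha7 had 4.48 and 5.15 CPM in K36M, against 23.9 and 25.8 CPM in WT (log2 fold change -2.37 ± 0.17, adjusted p = 5.02e-11). Efna1, a ligand of EphA receptors, had 17.3 and 20.5 CPM in K36M, against 4.72 and 4.31 CPM in WT (log2 fold change 2.06 ± 0.21, adjusted p = 1.77e-08). Epha3 had 0.132 and 0.885 CPM in K36M, against 1.75 and 3.1 CPM in WT (log2 fold change -2.32, and -4.09 without K36M library 2 and -1.43 without K36M library 1).

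Integrins, laminins and tetraspanins changed in both directions without a shift of the list. Of 24 integrin genes 8 were higher and 7 lower (median 0.12). Itga4, a receptor subunit for VCAM1 and fibronectin, had 0.724 and 0.885 CPM in K36M, against 21.4 and 24.5 CPM in WT (log2 fold change -4.83 ± 0.24, adjusted p = 1.48e-13). Itgb6, an epithelial subunit that binds latent TGF-beta, had 11.1 and 12.1 CPM in K36M, against 2.97 and 1.59 CPM in WT (log2 fold change 2.33 ± 0.27, adjusted p = 1.8e-07) and Itga5, a fibronectin receptor subunit, was 2.2-fold higher. Of 24 laminins and basement membrane genes 11 were lower and 8 higher (higher members: 5 without WT library 2, 5 without K36M library 1). Lama4 had 15.9 and 15.9 CPM in K36M, against 163 and 163 CPM in WT (log2 fold change -3.35 ± 0.10, adjusted p = 3.71e-17), and Lama2 and Col7a1 were 13.3-fold and 7.64-fold lower. Of 33 tetraspanins and annexins 15 were higher and 12 lower, with Tspan11 at 0.461 and 0.241 CPM in K36M, against 16.7 and 17.9 CPM in WT (log2 fold change -5.55 ± 0.37, adjusted p = 2.11e-11) and Cd82, a tetraspanin, at 67.9 and 66.4 CPM in K36M, against 18.1 and 14.5 CPM in WT (log2 fold change 2.04 ± 0.14, adjusted p = 3.46e-11). S100 and serpin genes had 14 of 28 higher and 11 lower. S100a4, an S100 protein of fibroblasts, had 1.25 and 2.41 CPM in K36M, against 77.7 and 88.6 CPM in WT (log2 fold change -5.54 ± 0.19, adjusted p = 3.07e-16). Serpinb6b, an intracellular protease inhibitor, had 33.9 and 32.8 CPM in K36M, against 4.11 and 4.61 CPM in WT (log2 fold change 2.94 ± 0.18, adjusted p = 4.37e-12). Serpinf1, the secreted factor PEDF, had 3.03 and 6.92 CPM in K36M, against 132 and 134 CPM in WT (log2 fold change -4.78, and -5.45 without K36M library 2 and -4.26 without K36M library 1).

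The kallikreins and related trypsin-like proteases were mostly higher. Of 20 tested members 13 were higher and 4 lower (Prss23, Plat, Plau and Prss35), with a median log2 fold change of 2.05. Besides Klk7, Klk6 had 19.7 and 20.3 CPM in K36M, against 2.29 and 2.27 CPM in WT (log2 fold change 3.13 ± 0.25, adjusted p = 3.14e-10). In the other direction Prss23, a secreted protease, had 5.07 and 4.26 CPM in K36M, against 43.7 and 43.1 CPM in WT (log2 fold change -3.20 ± 0.12, adjusted p = 1.57e-15). Kallikrein genes lie side by side on chromosome 7 and resemble one another, so reads of near-identical members could be split between them. Lysosomal genes and cathepsins had 17 of 38 higher and 10 lower, with Ctsh, a cathepsin, 5.78-fold higher, Ctsk, the collagen-degrading cathepsin K, 12.4-fold lower, and Arsb, a sulfatase, 6.83-fold lower.

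Cytokine and chemokine genes were mostly lower, and growth factor genes went both ways. Of 28 tested cytokine, chemokine and NF-kB genes 20 were lower and 4 higher (Il1a, Cxcl10, Cxcl16 and Lif), with a median log2 fold change of -2.50. The list had 40 genes, of which 39 were in the table and 28 passed the filter. A gene that passed only through its WT level had to be lower, so the share is that of the genes that passed. Ccl2, the monocyte-attracting chemokine, had 0.0658 and 0.563 CPM in K36M, against 11 and 19.11 CPM in WT (log2 fold change -5.64, and -7.64 without K36M library 2 and -4.71 without K36M library 1). Ccl7, its neighbour, had 0.0658 and 0 CPM in K36M, against 11.4 and 11.7 CPM in WT (WT over K36M ratio 319, exact 95% interval 56.8 to 12630.2). Without 1 library the fitted log2 value of Ccl7, -7.98, was -10.22 without K36M library 1, a fit against a library at 0 counts and no bound, and -7.26 without K36M library 2. Tnfrsf11b, the decoy receptor osteoprotegerin, had 0 and 0.402 CPM in K36M, against 4.52 and 4 CPM in WT (log2 fold change -4.49, and -8.83 without K36M library 2, a fit against a library at 0 counts and no bound, and -3.38 without K36M library 1). All 3 were nearly absent from both K36M libraries and present in both WT libraries. Of 46 growth factor genes and their receptors 22 were lower and 16 higher. Igfbp3, a carrier of insulin-like growth factors, had 3.69 and 5.87 CPM in K36M, against 132 and 134 CPM in WT (log2 fold change -4.82 ± 0.15, adjusted p = 5.01e-17). Ereg, an EGF receptor ligand, had 1.51 and 1.21 CPM in K36M, against 26.7 and 37.5 CPM in WT (log2 fold change -4.53 ± 0.23, adjusted p = 1.68e-13).

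The list of FGF ligands, their receptors and MAPK feedback genes, which the pathway induces and which dampen it, was mostly lower. Of 33 tested members 20 were lower and 4 higher (Fgf3, Fgf11, Fgfr2 and Dusp5), with a median log2 fold change of -0.86. Dusp6, an ERK phosphatase (chromosome 10, 98725865 to 98730122), had 25.5 and 26.5 CPM in K36M, against 131 and 127 CPM in WT (log2 fold change -2.31 ± 0.09, adjusted p = 3.77e-15). Etv4, an ETS factor downstream of FGF, had 26.5 and 22.2 CPM in K36M, against 125 and 119.6 CPM in WT and was 5.01-fold lower. Etv1, of the same family, had 2.7 and 3.14 CPM in K36M, against 24 and 23.5 CPM in WT and was 8.16-fold lower. Of the Wnt ligands and Frizzled receptors 15 of 32 were lower and 8 higher. Wnt5a, the main noncanonical ligand of mesenchyme, had 2.5 and 2.98 CPM in K36M, against 44.3 and 48 CPM in WT (log2 fold change -4.08 ± 0.15, adjusted p = 4.23e-16), opposite to Wnt7b above. Of 27 Wnt modulators and targets 17 were lower and 5 higher (Rspo1, Rnf43, Tcf7, Kremen1 and Tcf7l1), with a median of -0.88. Apcdd1, a membrane inhibitor of Wnt signalling, had 9.15 and 9.25 CPM in K36M, against 141 and 131 CPM in WT (log2 fold change -3.89 ± 0.16, adjusted p = 2.92e-15). Nkd2, an inhibitor that binds Dishevelled, had 5.27 and 5.07 CPM in K36M, against 35.1 and 46.9 CPM in WT (log2 fold change -2.98 ± 0.21, adjusted p = 4.19e-11). In the Hedgehog list 10 of 18 were lower and 4 higher (Scube2, Cdon and Ptch1 among them): the co-receptors Gas1 and Boc were 13.1-fold and 3.94-fold lower, and Hhat, which acylates the ligand, 5.6-fold. In the Notch list 12 of 27 were lower and 7 higher. Dll1, a Notch ligand, had 11.1 and 12.6 CPM in K36M, against 2.02 and 2.57 CPM in WT (log2 fold change 2.37 ± 0.26, adjusted p = 6.81e-08), and the coactivator Maml2 and the glycosyltransferase Lfng were 7.77-fold and 6.6-fold lower. Of 24 YAP targets 10 were lower and 9 higher, with Cyr61 at 62.2 and 61.4 CPM in K36M, against 227 and 222 CPM in WT (log2 fold change -1.86 ± 0.07, adjusted p = 8.85e-16), and Tgfb2 and Fjx1 3.57-fold and 6.34-fold lower. Retinoid handling genes had 7 of 14 lower and 4 higher (Stra8, Dhrs3, Stra6 and Rdh11) (higher members: 2 without K36M library 1). Crabp1, which binds retinoic acid in the cytoplasm, had 15.5 and 18.3 CPM in K36M, against 192 and 217 CPM in WT (log2 fold change -3.60 ± 0.12, adjusted p = 1.02e-16), Cyp26b1, which degrades it, was 7.94-fold lower, and Aldh1a1, which makes it, 3.77-fold lower.

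The lists of the hypoxia response and of glycolysis were both mostly higher. They share members, Pfkfb3 and Pfkfb4 among them, and so are not separate results. Under low oxygen the HIF factors bind a short word, ACGTG or GCGTG, near genes of glucose uptake, glycolysis and survival. Of 29 tested hypoxia genes 21 were higher and 2 lower (Epas1 and Pfkfb4), with a median log2 fold change of 0.92, and of 31 glycolysis genes 25 were higher and 2 lower (Pfkfb4 and Eno2), with a median of 0.74. The windows from 250 bases before to 50 bases after the transcription start of the 3 hypoxia genes taken by the rule are shown because they hold that word. They are from RefSeq's promoter table and were placed on mm9 by exact match. The word, in either spelling and read on either strand, is in capitals, with overlapping words joined, and an E-box, which contains it, counts as one.
Bnip3, chr7:146101140-146101439, minus strand: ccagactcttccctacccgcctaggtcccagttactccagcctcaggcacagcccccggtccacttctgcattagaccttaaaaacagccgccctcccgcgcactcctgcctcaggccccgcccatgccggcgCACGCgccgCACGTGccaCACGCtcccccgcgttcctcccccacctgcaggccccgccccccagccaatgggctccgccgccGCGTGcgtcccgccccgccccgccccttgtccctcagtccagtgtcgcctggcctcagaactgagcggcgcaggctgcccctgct
P4ha2, chr11:53914176-53914475, plus strand: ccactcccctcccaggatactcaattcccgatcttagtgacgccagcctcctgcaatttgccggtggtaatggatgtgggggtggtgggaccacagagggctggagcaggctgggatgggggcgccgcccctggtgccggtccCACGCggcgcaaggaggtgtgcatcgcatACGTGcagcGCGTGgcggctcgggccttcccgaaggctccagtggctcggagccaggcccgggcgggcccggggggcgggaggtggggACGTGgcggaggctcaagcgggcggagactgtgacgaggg
Car9, chr4:43519648-43519947, plus strand: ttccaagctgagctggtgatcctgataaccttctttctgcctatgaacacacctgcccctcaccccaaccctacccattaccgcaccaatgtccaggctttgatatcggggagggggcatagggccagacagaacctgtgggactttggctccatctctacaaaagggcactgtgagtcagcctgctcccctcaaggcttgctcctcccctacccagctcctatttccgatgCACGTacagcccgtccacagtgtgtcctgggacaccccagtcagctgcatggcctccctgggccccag

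The word was present in 82.4% of the 17 windows of hypoxia genes called higher, 79.2% of the 24 windows of glycolysis genes called higher, and 61.7% of the 10571 windows of all tested genes with one. It was also in 83.3% of the 6 windows of hypoxia genes not called and in the 1 window of a hypoxia gene called lower, and in 66.7% of the 3 windows of glycolysis genes not called and 50% of the 2 called lower. The word was thus as frequent in hypoxia genes that were not called as in those called higher. A match is a description of the letters and not a bound site. Bnip3, a mitophagy receptor, had 172 and 167 CPM in K36M, against 30.4 and 37.1 CPM in WT (log2 fold change 2.33 ± 0.10, adjusted p = 4.38e-15). P4ha2, a subunit of collagen prolyl hydroxylase, had 68.1 and 74.3 CPM in K36M, against 12.1 and 15.3 CPM in WT (log2 fold change 2.38 ± 0.12, adjusted p = 2.28e-13). Car9, a carbonic anhydrase of hypoxic cells, had 6.98 and 6.51 CPM in K36M, against 0.944 and 0.302 CPM in WT (log2 fold change 3.38, and 4.44 without WT library 1 and 2.83 without WT library 2). In all 3 both K36M libraries lay well above both WT libraries. In the glycolysis list, Slc16a3, the lactate exporter MCT4 (chromosome 11, 120809794 to 120822182), had 315 and 298 CPM in K36M, against 71.6 and 71.9 CPM in WT (log2 fold change 2.09 ± 0.08, adjusted p = 3.55e-15). Pfkfb3, which makes the activator of phosphofructokinase, had 116 and 110.3 CPM in K36M, against 28.4 and 33 CPM in WT (log2 fold change 1.88 ± 0.09, adjusted p = 1.11e-13), and its relative Pfkfb1 was 3.55-fold higher. Oxygen supply and cell density are not stated in the labels.

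**Figure D2:**
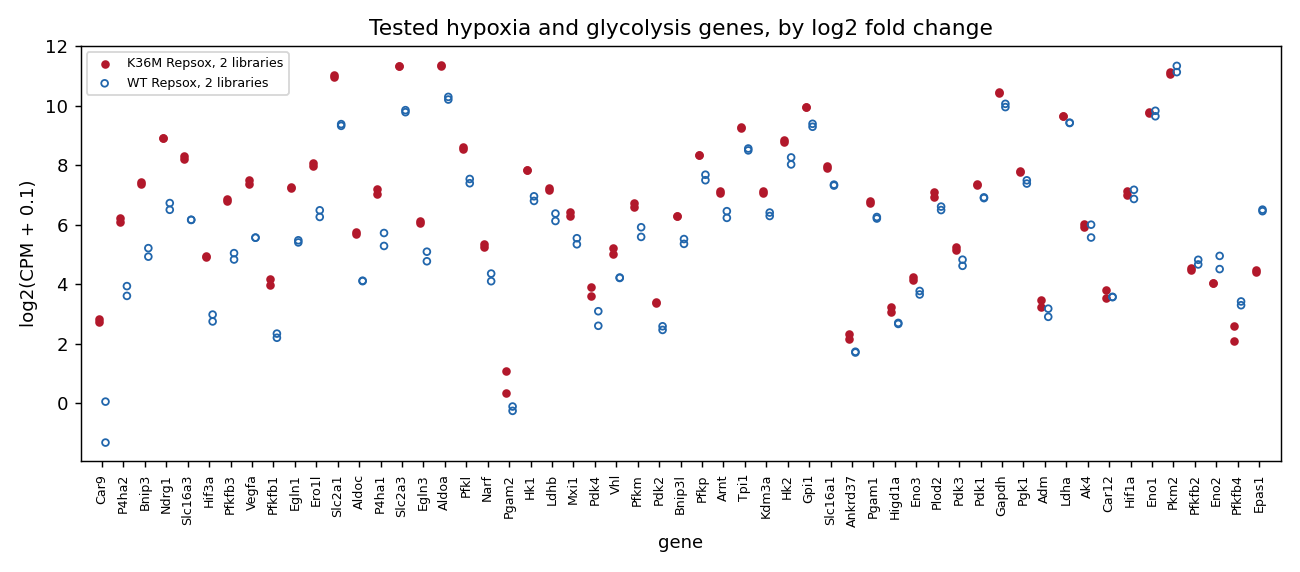
Levels of the tested hypoxia and glycolysis genes as log2(CPM + 0.1) (y axis), ordered from the largest to the lowest log2 fold change (x axis), with filled points for the 2 K36M libraries left of open points for the 2 WT libraries. From Car9 at the left the K36M points lie above the WT points through most of the range, and Epas1 at the right is the largest decrease.

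Mitochondrial genes showed no like shift. Of 29 genes of the TCA cycle and pyruvate entry 12 were higher and 3 lower (Pcx, Pdha1 and Dlst), with Idh2, the mitochondrial isocitrate dehydrogenase, at 218 and 212 CPM in K36M, against 108 and 96.6 CPM in WT (log2 fold change 1.07 ± 0.08, adjusted p = 2.66e-10), and Me2 and Sucla2 1.54-fold and 1.44-fold higher. Of 38 complex I genes 10 were higher and 2 lower (Ndufa2 and Ndufa13) (higher members: 16 without WT library 2, 5 without K36M library 1 and lower members: 5 without WT library 2, 1 without K36M library 2), with Ndufa4l2, a relative of complex subunits, 2.41-fold higher. Of 39 genes of complexes III to V 7 were higher and 3 lower (Atp5j2, Cycs and Cox6b2) (higher members: 14 without WT library 2, 4 without K36M library 2 and lower members: 5 without WT library 1, 5 without WT library 2), with Uqcrb 1.61-fold higher and Atp5j2 1.31-fold lower. The call of Cycs was lost without WT library 2 and without K36M library 2 (adjusted p = 0.139 and 0.149). The medians of these 3 lists were 0.16, 0.09 and 0.03. Of 69 mitochondrial ribosome genes 7 were higher and 8 lower (higher members: 4 without K36M library 1 and lower members: 4 without K36M library 2), with Mrpl23 and Mrpl14 1.87-fold and 1.57-fold higher and Mrps21 1.64-fold lower.

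Lipid genes showed little shift as lists, with large single changes. Medians were 0.13 for fatty acid synthesis and storage, 0.15 for cholesterol synthesis and 0.05 for fatty acid oxidation and peroxisomes, beside 0.04 for all genes. The shares called higher were 36.4%, 45.8% and 28.1%, beside 28.8% of all genes. The shares called lower were 21.2%, 4.17% and 15.6%, beside 26.9%. Of 33 genes of fatty acid synthesis and storage 12 were higher and 7 lower: Fabp3, a fatty acid binding protein, had 256 and 264 CPM in K36M, against 61.8 and 80.9 CPM in WT (log2 fold change 1.87 ± 0.10, adjusted p = 5.88e-13), and Agpat9, an acyltransferase of glycerolipid synthesis, was 4-fold higher. Mlxipl, the glucose-responsive factor ChREBP, had 19.3 and 17.1 CPM in K36M, against 0.337 and 0.907 CPM in WT (log2 fold change 4.88, and 5.72 without WT library 2 and 4.31 without WT library 1). Of 24 cholesterol genes 11 were higher and 1 lower (higher members: 6 without K36M library 1, 7 without K36M library 2 and lower members: 0 without K36M library 1), with Mvd, a mevalonate pathway enzyme, 2.27-fold higher. Of 32 genes of fatty acid oxidation and peroxisomes 9 were higher and 5 lower (Acadvl, Cpt1c, Eci1, Acaa2 and Abcd3) (lower members: 3 without K36M library 1, 3 without K36M library 2): Acadl had 99.7 and 96.2 CPM in K36M, against 46.8 and 46.6 CPM in WT (log2 fold change 1.07 ± 0.08, adjusted p = 3.13e-10). Acadvl, its very-long-chain relative, had 20.3 and 15.7 CPM in K36M, against 35.1 and 33 CPM in WT (log2 fold change -0.91 ± 0.13, adjusted p = 2.67e-06). Of 37 ABC transporters 13 were lower and 9 higher, with Abcc8, the sulfonylurea receptor, 4.67-fold and Abca12, a lipid transporter of skin, 3.53-fold higher.

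Genes of thiol defence and of one-carbon metabolism were mostly lower. Of 43 glutathione and NRF2 genes 24 were lower and 9 higher (median -0.32). Slc7a11, the cystine importer that feeds glutathione synthesis, had 11.1 and 12.3 CPM in K36M, against 119.6 and 139 CPM in WT (log2 fold change -3.47 ± 0.11, adjusted p = 5.89e-17), Mgst1, a microsomal glutathione transferase, was 6.62-fold lower, and Gpx8, a peroxidase of the endoplasmic reticulum, 6.32-fold lower. Of 26 serine, folate and one-carbon genes 17 were lower and 3 higher (Gldc, Amt and Ahcyl1), with a median of -0.33. Cth, which makes cysteine, had 19.3 and 18.4 CPM in K36M, against 54.1 and 53.5 CPM in WT (log2 fold change -1.51 ± 0.10, adjusted p = 8.41e-12), and Mthfd2l, a mitochondrial folate enzyme, was 3.14-fold lower. Gldc, of the glycine cleavage system, had 233 and 219 CPM in K36M, against 96.7 and 93.5 CPM in WT (log2 fold change 1.25 ± 0.08, adjusted p = 2.68e-11). Gldc and Amt, among the genes that were higher, encode parts of the same complex. Of 29 ATF4 and amino acid response genes 14 were lower and 9 higher (higher members: 4 without K36M library 1), with Stc2, a secreted stress glycoprotein, 3.61-fold lower. Aldehyde dehydrogenases and carbonic anhydrases had 12 of 29 lower and 9 higher. Aldh3a1, a detoxifying enzyme known from cornea and stomach (chromosome 11, 61021039 to 61031923), had 15.7 and 15.4 CPM in K36M, against 328 and 326 CPM in WT (log2 fold change -4.39 ± 0.10, adjusted p = 3.08e-19). Of 32 iron, copper and metallothionein genes 14 were higher and 12 lower, with Heph, a ferroxidase, 3.35-fold higher, and Cp, its plasma relative ceruloplasmin, at 0.593 and 1.93 CPM in K36M, against 26.8 and 34.8 CPM in WT (log2 fold change -4.66, and -5.67 without K36M library 2 and -3.99 without K36M library 1).

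Lists of protein folding and turnover differed in their direction. Of 29 endoplasmic reticulum folding genes 11 were lower and 4 higher (Pdia5, Edem1, Edem2 and P4hb) (higher members: 2 without K36M library 1 and lower members: 6 without K36M library 2), with Pdia5 1.8-fold higher, Edem1 1.41-fold higher and Dnajc3 1.41-fold lower. Of 29 cytosolic heat shock genes 11 were lower and 8 higher (lower members: 7 without K36M library 1): Hspb2, a small heat shock protein of muscle, had 20.7 and 22 CPM in K36M, against 1.28 and 1.28 CPM in WT (log2 fold change 4.05 ± 0.21, adjusted p = 2.26e-13), Hspa2, a testis-rich chaperone, was 2.12-fold higher, and Hspb6 2.19-fold lower. Of 40 proteasome genes 10 were lower and 7 higher (higher members: 3 without K36M library 1), with Psmb10, an immunoproteasome subunit, 2.7-fold lower, and Psmd8 and Psme2 1.55-fold and 1.53-fold higher. V-ATPase and autophagy genes leaned to higher levels, with 17 of 34 higher and 5 lower (Atp6v0e2, Becn1, Atp6v0a2, Gabarap and Map1lc3b) (lower members: 3 without K36M library 1). The proton pump subunit Atp6v0a4 had 21.9 and 20.6 CPM in K36M, against 5.33 and 5.97 CPM in WT (log2 fold change 1.91 ± 0.18, adjusted p = 6.49e-09), and Atp6v1d was 1.7-fold higher.

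Ribosome biogenesis genes were lower while genes of mitosis were higher. Of 40 tested ribosome biogenesis genes 30 were lower and 0 higher. Their median log2 fold change was -0.43. DESeq2 and limma-voom also called 0 higher, and no member was higher at an unadjusted p below 0.05. Dkc1, the pseudouridine synthase dyskerin, had 73 and 70.2 CPM in K36M, against 128 and 137 CPM in WT (log2 fold change -0.88 ± 0.08, adjusted p = 5.23e-09). Polr1b, a subunit of RNA polymerase I, had 86.8 and 82.3 CPM in K36M, against 158 and 138 CPM in WT and was 1.75-fold lower. Polr1e, another subunit, had 17.4 and 17.3 CPM in K36M, against 29.9 and 30.7 CPM in WT and was 1.75-fold lower. Myc, which is known to induce these genes, was lower too, as given above, and the part of its level in the list was not tested. The ribosomal proteins themselves moved less: 15 of 82 were lower and 6 higher (higher members: 18 without WT library 2), with a median of -0.04. Rplp1 was 1.48-fold lower, and of the paralogs, Rpl22l1 was 1.96-fold lower and Rpl39l, known from testis, 2.04-fold higher. Ribosomal protein genes have many processed pseudogenes with which reads may be shared. Of 37 tRNA synthetases 14 were lower and 3 higher (Iars2, Qars and Dars) (higher members: 1 without K36M library 2 and lower members: 8 without K36M library 2), with Hars and Yars2 1.46-fold and 1.43-fold lower.

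Of 62 tested mitosis genes 51 were higher and 0 lower, with a median log2 fold change of 0.47 and a range of -0.31 to 1.01. At an unadjusted p below 0.05 edgeR gave 3 members lower, DESeq2 called 0 lower and limma-voom 3, and without WT library 2 edgeR called 2 lower. Ndc80, of the kinetochore (chromosome 17, 71845440 to 71876197), had 48.8 and 45.4 CPM in K36M, against 22.5 and 24.4 CPM in WT (log2 fold change 1.01 ± 0.11, adjusted p = 9.61e-08). Cenpm, of the centromere, had 19.6 and 14.4 CPM in K36M, against 9.57 and 7.4 CPM in WT (log2 fold change 1.00 ± 0.18, adjusted p = 5.38e-05). Cdc25c, a phosphatase that starts mitosis, had 39.5 and 36.7 CPM in K36M, against 23.3 and 15.8 CPM in WT (log2 fold change 0.96 ± 0.14, adjusted p = 6.47e-06). None of the 3 differed by much more than 2-fold. DNA replication genes did not move as one: 18 of 60 were higher and 9 lower (higher members: 10 without K36M library 1, 10 without K36M library 2), with a median of 0.15. The list's largest decreases were Ccnd2 and Ccnd1, above, and Cdk6, their kinase, at 31.9 and 33.6 CPM in K36M, against 85.7 and 75.2 CPM in WT (log2 fold change -1.30 ± 0.09, adjusted p = 7e-11). Of 30 CDK inhibitors and p53 targets 19 were lower and 3 higher (Cdkn1b, Cdkn1c and Rbl1), with a median of -0.65. Cdkn2b and Cdkn2a are neighbouring genes on chromosome 4 whose products hold back the D-type cyclin kinases and, for Cdkn2a, also stabilise p53. Cdkn2b had 15.1 and 15.4 CPM in K36M, against 91 and 86.4 CPM in WT and was 5.82-fold lower (adjusted p = 1.06e-15). Cdkn2a had 35.1 and 29.6 CPM in K36M, against 137 and 114 CPM in WT and was 3.87-fold lower (adjusted p = 5.27e-13), so that Ccnd1, Ccnd2 and these inhibitors were all lower in K36M. Fas, a death receptor, was 5.45-fold lower. Of 64 DNA repair genes 24 were higher and 9 lower, with the glycosylases Neil2 and Neil3 3.77-fold and 2.98-fold higher and Rad51c, of recombination, 2.25-fold. Of 32 Bcl2 family and caspase genes 13 were higher and 7 lower: Bcl2, which blocks cell death, had 1.19 and 1.69 CPM in K36M, against 20.2 and 24.6 CPM in WT (log2 fold change -3.97 ± 0.20, adjusted p = 1.97e-13). Cflar, a caspase-8 inhibitor, had 15.4 and 15.6 CPM in K36M, against 59.5 and 61.6 CPM in WT (log2 fold change -1.96 ± 0.10, adjusted p = 2.58e-13). Bmf, a promoter of cell death, had 56.6 and 57.7 CPM in K36M, against 15.5 and 14.1 CPM in WT (log2 fold change 1.95 ± 0.13, adjusted p = 1.15e-11).

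**Figure D3:**
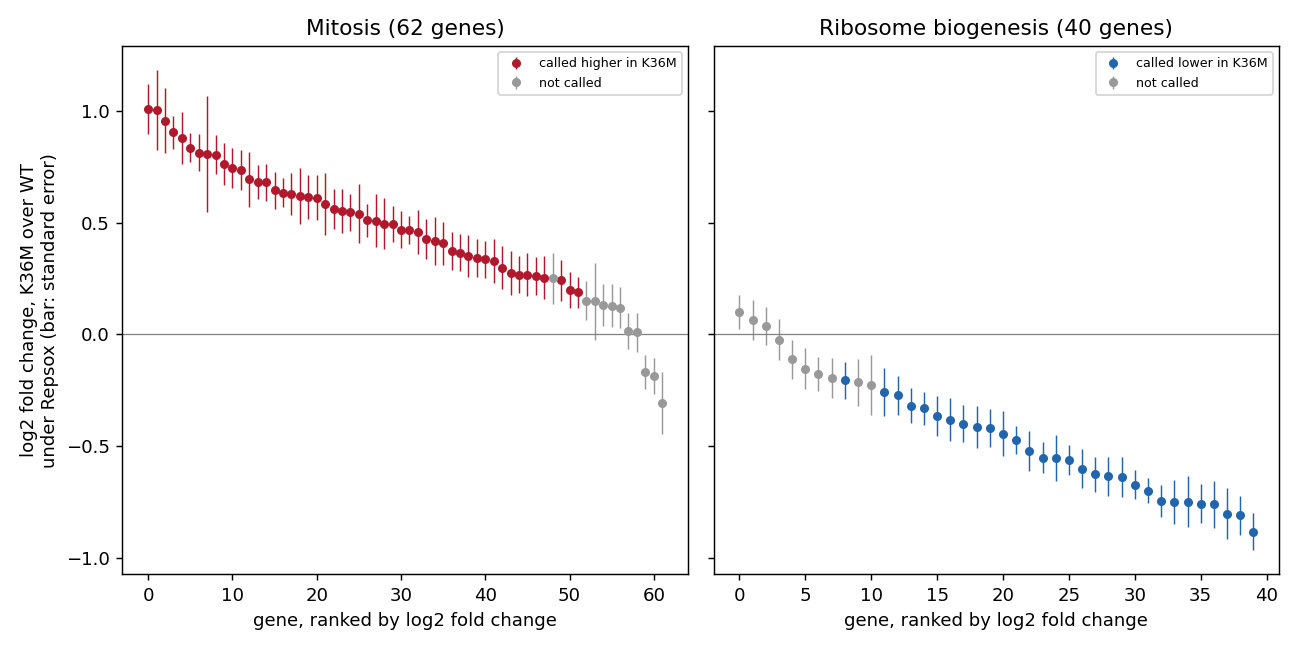
Log2 fold change of K36M over WT under Repsox with its standard error (y axis) for the tested genes of mitosis (left) and ribosome biogenesis (right), ranked from high to low (x axis). Most mitosis genes lie between 0 and 1 and 51 of 62 are called higher, while 30 of 40 ribosome biogenesis genes are called lower in the other panel.

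Germline genes had the highest median of all lists. Genes of meiosis, germ cell RNA granules and piRNA production are silent in most somatic cells, many through DNA methylation of their promoters and through complexes that bind an E-box, CACGTG, or an E2F-type word, TCCCGC or GCGGGA. Of 47 tested members of the list 39 were higher and 0 lower. Their median log2 fold change was 2.86. The same count of 0 lower was given by DESeq2, by limma-voom and at an unadjusted p below 0.05. Of the 39, 32 were at least 4-fold higher by the fitted value, 9 had at most 3 counts in the WT libraries together, 12 reached 1 CPM in both WT libraries, and 34 did so in both K36M libraries. The list had 62 genes, of which 15 were below the filter or not in the table, and a gene that passed only through its K36M level had to be higher, so the share is that of the genes that passed. The windows of 3 members that hold both words, chosen for these letters and from genes called higher, are shown with these words in capitals.
Mael, chr1:168168826-168169125, minus strand: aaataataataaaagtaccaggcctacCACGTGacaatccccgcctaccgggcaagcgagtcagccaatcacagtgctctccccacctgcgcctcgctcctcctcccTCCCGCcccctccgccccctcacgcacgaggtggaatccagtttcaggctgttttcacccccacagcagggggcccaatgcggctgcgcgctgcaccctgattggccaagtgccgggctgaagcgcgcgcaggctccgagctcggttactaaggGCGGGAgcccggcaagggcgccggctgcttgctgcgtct
Hormad1, chr3:95363349-95363648, plus strand: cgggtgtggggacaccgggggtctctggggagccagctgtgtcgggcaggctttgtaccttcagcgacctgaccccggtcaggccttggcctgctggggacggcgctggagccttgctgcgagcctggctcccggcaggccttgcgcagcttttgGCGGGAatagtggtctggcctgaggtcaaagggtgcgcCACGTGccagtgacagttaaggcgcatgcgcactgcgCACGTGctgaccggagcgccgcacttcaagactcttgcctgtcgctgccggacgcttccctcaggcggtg
Sycp1, chr3:102739974-102740273, minus strand: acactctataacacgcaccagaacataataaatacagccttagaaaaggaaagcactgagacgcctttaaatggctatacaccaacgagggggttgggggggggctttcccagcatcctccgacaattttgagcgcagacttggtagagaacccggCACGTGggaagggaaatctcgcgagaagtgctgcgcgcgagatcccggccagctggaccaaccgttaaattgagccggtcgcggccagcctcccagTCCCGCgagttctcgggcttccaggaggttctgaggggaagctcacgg

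Mael acts in the piRNA pathway, Hormad1 on meiotic chromosome axes and Sycp1 in the synaptonemal complex. The E-box was in 34.3% of the 35 windows of germline genes called higher, in 42.9% of the 7 windows of members not called, and in 10% of the 10571 windows of all tested genes. Both words were in 17.1% of the windows of members called higher, in 14.3% of the 7 windows of members not called and in 3.85% of all windows. The E2F-type word was in 45.7% of the windows of members called higher, 28.6% of those not called and 35.5% of all windows. Neither the E-box nor the pair of words was thus limited to members called higher, and a match says nothing of binding. Sohlh2, a transcription factor of early germ cells (chromosome 3, 54985950 to 55013879), had 14 and 10.1 CPM in K36M, against 0.202 and 0.0755 CPM in WT (log2 fold change 6.32, and 7.15 without WT library 1 and 5.84 without WT library 2). Smc1b, the meiotic cohesin subunit, had 16.1 and 13.4 CPM in K36M, against 0.809 and 0.0755 CPM in WT (log2 fold change 4.98, and 4.18 without WT library 2 and 7.44 without WT library 1). Tesc had 7.84 and 9.33 CPM in K36M, against 1.01 and 0.453 CPM in WT (log2 fold change 3.50, and 4.21 without WT library 1 and 3.07 without WT library 2). All 3 were at 1.01 CPM or less in both WT libraries, and their folds depend on those few counts, while both K36M libraries were well above them. Of 14 tested cancer-testis genes of the X chromosome 11 were higher and 3 lower (Magee1, Mageh1 and Maged2). Their list had 41 genes, of which 30 were in the table and 14 passed the filter. Here too a gene that passed only through its K36M level had to be higher. Rhox9, a homeobox gene of the reproductive cluster, had 91.3 and 85.5 CPM in K36M, against 31.7 and 23.6 CPM in WT (log2 fold change 1.67 ± 0.16, adjusted p = 5.22e-09). Xlr3a, of a repeated X-linked family whose copies share reads, had 12.2 and 12.9 CPM in K36M, against 0.809 and 2.42 CPM in WT (log2 fold change 2.99, and 2.37 without WT library 1 and 3.95 without WT library 2). Of the 25 genes of the cleavage stage list 15 were in the table and 3 passed the filter, of which 1 was called (Gata3, higher).

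**Figure D4:**
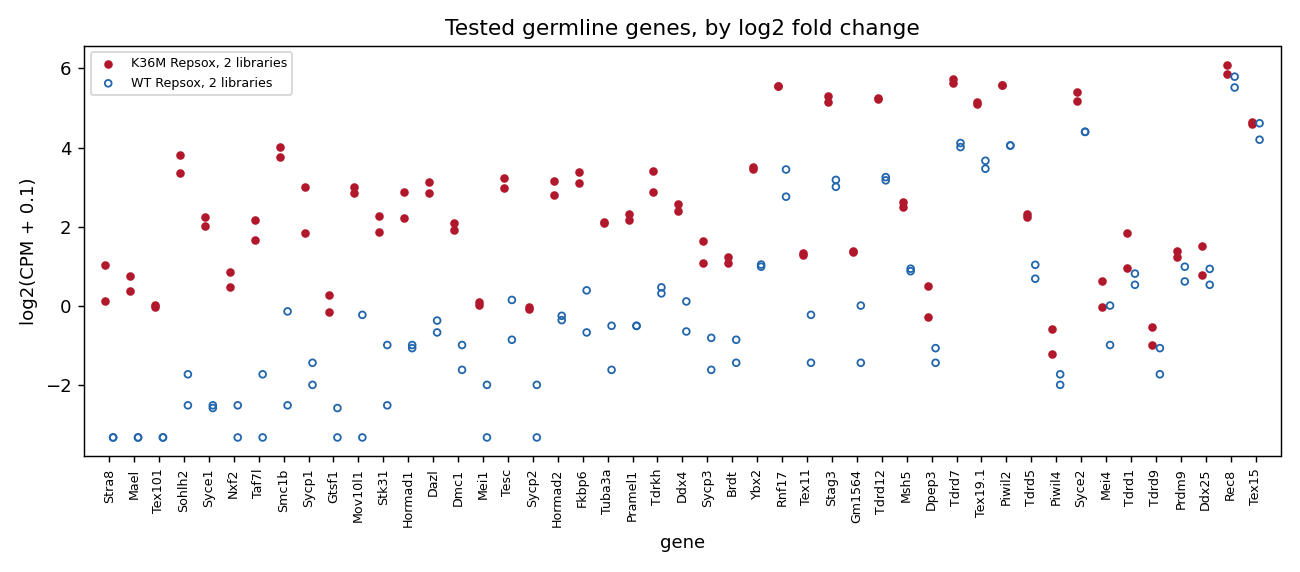
Levels of the 47 tested germline genes as log2(CPM + 0.1) (y axis), ordered from the largest to the lowest log2 fold change (x axis), with filled points for the 2 K36M libraries left of open points for the 2 WT libraries. The K36M points lie above the WT points for most genes, and WT points at the bottom of the axis are libraries with 0 counts.

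Lists of other lineages were higher in part, at levels that differed widely. Summed levels in K36M were 250 and 237 CPM for striated muscle and 10301 and 10284 CPM for trophoblast and placenta. In WT these sums were 169 and 164 CPM and 4719 and 5110 CPM. Such a sum can rest on a few abundant genes and does not compare the lineages, and the 6 trophoblast markers summed to far less, as given below. Of 22 tested trophoblast and placenta genes 17 were higher and 2 lower (Tfap2a and Eomes) (lower members: 1 without K36M library 2), with a median log2 fold change of 1.63. Hand1, a trophoblast factor that other tissues also use, had 83.1 and 74.5 CPM in K36M, against 14.9 and 14 CPM in WT (log2 fold change 2.45 ± 0.14, adjusted p = 1.09e-12). Tfap2a, a factor of trophoblast, epidermis and neural crest, had 2.96 and 3.62 CPM in K36M, against 33.6 and 40 CPM in WT (log2 fold change -3.49 ± 0.20, adjusted p = 1.5e-12). Of the 6 trophoblast markers 2 were higher and 1 lower, with sums of 130.2 and 114 CPM in K36M and 39.2 and 38.8 CPM in WT, and 1 of the 6 at 0 counts in both groups. Of 20 extraembryonic endoderm genes 15 were higher and 4 lower (Ttr, Thbd, Dab2 and Lama1), with a median of 1.54. Cubn, the endocytic receptor cubilin, had 21.6 and 22.4 CPM in K36M, against 2.16 and 3.17 CPM in WT (log2 fold change 3.05 ± 0.19, adjusted p = 7.68e-12), Cited1, a transcriptional coactivator, was 3.09-fold higher, and Thbd, thrombomodulin, 22.7-fold lower. Of the 5 primitive endoderm markers 3 were higher (Gata4, Gata6 and Sox17) and 1 was lower (Pdgfra). Their sums of 27.5 and 26 CPM in K36M and 59.2 and 56.1 CPM in WT were set mostly by Pdgfra, also 1 of the fibroblast markers, which had 9.09 and 11.5 CPM in K36M, against 56.8 and 52.8 CPM in WT. Of 24 striated muscle genes 16 were higher and 3 lower (Mef2c, Mylpf and Fbxo32), with a median of 1.52. Trim63, a ubiquitin ligase of muscle, had 6.58 and 5.95 CPM in K36M, against 0.202 and 0.302 CPM in WT (log2 fold change 4.60 ± 0.41, adjusted p = 4.42e-09). Myl3, a myosin light chain, had 5.86 and 4.99 CPM in K36M, against 0.27 and 0.302 CPM in WT (log2 fold change 4.21 ± 0.41, adjusted p = 1.44e-08). Acta1, skeletal alpha-actin, had 5.86 and 5.79 CPM in K36M, against 0.809 and 0.302 CPM in WT (log2 fold change 3.34, and 4.22 without WT library 1 and 2.84 without WT library 2). These 3 were low in every library. Of the 4 skeletal muscle markers 2 were higher and 0 lower. Myod1 had 0 counts in K36M and 3 in WT, and Myog 4 and 3, over both libraries, and both genes were below the filter. As in the germline list, a gene that passed the filter only through its K36M level had to be higher. This holds for each list of this paragraph.

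Neural genes went the other way. Of 27 tested neural genes 15 were lower and 5 higher (Cntn1, Cntn2, Elavl3, L1cam and Syp), with a median of -1.43. Nefm, a neurofilament subunit, had 2.5 and 2.01 CPM in K36M, against 25.3 and 31.8 CPM in WT (log2 fold change -3.64 ± 0.23, adjusted p = 5.27e-12), and Zic1, a zinc finger factor of neural and mesenchymal tissue, was 13.9-fold lower. Cntn1, a neuronal adhesion protein, had 7.9 and 7.88 CPM in K36M, against 0.27 and 0.378 CPM in WT (log2 fold change 4.58 ± 0.38, adjusted p = 7.8e-10). Of 16 endothelial and blood genes 8 were higher and 2 lower (Runx1 and Tek) (lower members: 4 without K36M library 1): Csf1r, the receptor for CSF1 in macrophages and trophoblast, had 47.9 and 47.1 CPM in K36M, against 11.6 and 9.37 CPM in WT (log2 fold change 2.18 ± 0.15, adjusted p = 5.09e-11), and Flt1, a VEGF receptor, was 4.28-fold higher. Runx1 had 24.4 and 24 CPM in K36M, against 91.1 and 86.4 CPM in WT (log2 fold change -1.87 ± 0.10, adjusted p = 2.4e-13). Of 42 potassium channels 14 were higher and 14 lower. Kcnq5 was 12.1-fold lower, Kcnf1 had 0.856 and 2.41 CPM in K36M, against 37.7 and 35.4 CPM in WT (log2 fold change -4.54, and -5.40 without K36M library 2 and -3.92 without K36M library 1), and Kcnj2, the inward rectifier Kir2.1, had 0.395 and 0 CPM in K36M, against 15 and 20.8 CPM in WT (log2 fold change -6.30, and -10.85 without K36M library 1, a fit against a library at 0 counts and no bound, and -5.46 without K36M library 2).

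Genes of naive pluripotency leaned to higher levels, though not as a block. Of 32 tested 17 were higher (53.1%, against 28.8% of all genes) and 7 lower (21.9%, against 26.9%). Their median log2 fold change was 0.30. Zfp42 (Rex1), a classical marker, had 44 and 42.9 CPM in K36M, against 8.83 and 6.27 CPM in WT (log2 fold change 2.52 ± 0.17, adjusted p = 1.66e-11). Lin28a, an RNA-binding protein that blocks let-7 processing, had 129 and 124 CPM in K36M, against 49.8 and 44.4 CPM in WT (log2 fold change 1.43 ± 0.10, adjusted p = 3.42e-11). Nanog had 101 and 107 CPM in K36M, against 129.8 and 114 CPM in WT and was not called (log2 fold change -0.23 ± 0.19, adjusted p = 0.314). It was called lower in a fit of the 4 Repsox libraries alone (adjusted p = 0.0127) and with no filter on low counts (adjusted p = 0.0085). Among 30 oncofetal RNA-binding and microRNA processing genes 10 were higher and 8 lower, with Hmga2, a let-7 target in many cells, at 118 and 123 CPM in K36M, against 245 and 299 CPM in WT (log2 fold change -1.18 ± 0.09, adjusted p = 1.5e-10) and Zfp36l2, which destabilises mRNAs, 2.08-fold lower.

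Imprinted genes, which are expressed from 1 parental copy, had 20 of 41 higher and 10 lower. Their median log2 fold change was 0.46. Besides H19, Phlda2 had 190.3 and 179.8 CPM in K36M, against 60.3 and 54.5 CPM in WT (log2 fold change 1.69 ± 0.11, adjusted p = 6.4e-12) and Slc22a18 had 30.2 and 27.5 CPM in K36M, against 8.76 and 9.14 CPM in WT (log2 fold change 1.69 ± 0.18, adjusted p = 3.4e-08). H19, Igf2, Phlda2 and Slc22a18 all lie at the distal end of chromosome 7, and all 4 were higher. H19 lies at chromosome 7, 149761434 to 149764048 and Phlda2 at chromosome 7, 150687450 to 150688446. These 4 were named by the rule for large changes, and the other imprinted genes of that region were not counted. Gene counts do not separate the parental copies.

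The lists of chromatin genes had medians from -0.10 to 0.18, near that of all genes. Of 29 genes that write, erase or read methylation of H3 lysine 36, 12 were higher and 4 lower (H3f3a, Zmynd11, Psip1 and Ash1l) (lower members: 2 without K36M library 1, 2 without K36M library 2), with a median of 0.16. Of the enzymes, Whsc1 (NSD2) had 147 and 141 CPM in K36M, against 100.2 and 91.6 CPM in WT (log2 fold change 0.59 ± 0.08, adjusted p = 2.37e-06). Setd2 had 290.0 and 303 CPM in K36M, against 235 and 238 CPM in WT (log2 fold change 0.33 ± 0.07, adjusted p = 0.000542). Nsd1 had 648 and 631 CPM in K36M, against 577 and 533 CPM in WT (log2 fold change 0.20 ± 0.07, adjusted p = 0.0117). The Nsd1 call was lost without K36M library 1 (adjusted p = 0.101) and in a fit of the 4 Repsox libraries alone (adjusted p = 0.0819). The demethylase Kdm4b and the Polycomb-associated reader Phf19 were 1.84-fold and 1.82-fold higher. Of 39 Polycomb genes 16 were higher and 7 lower (lower members: 4 without WT library 2, 4 without K36M library 1): Rbbp7, a histone-binding subunit, had 679 and 703 CPM in K36M, against 273 and 313 CPM in WT (log2 fold change 1.24 ± 0.07, adjusted p = 2.9e-12), Pcgf5, of a variant PRC1, was 2.04-fold higher, and Cbx6, a reader subunit of PRC1, 2.24-fold lower. Of 24 DNA methylation and TET genes 8 were higher and 8 lower (higher members: 5 without WT library 2). Dnmt3l, a cofactor of new DNA methylation in germ cells and stem cells, had 111 and 115 CPM in K36M, against 27.8 and 22.7 CPM in WT (log2 fold change 2.16 ± 0.13, adjusted p = 3e-12). Dnmt3a had 141 and 132 CPM in K36M, against 100.4 and 88.5 CPM in WT (log2 fold change 0.53 ± 0.09, adjusted p = 2.08e-05). Dnmt3b had 162 and 169.9 CPM in K36M, against 181 and 168 CPM in WT, which overlapped (log2 fold change -0.08 ± 0.09, adjusted p = 0.475). Gadd45b was 2.78-fold higher and Apobec1 1.97-fold lower. Of 30 H3K9 and heterochromatin genes 13 were higher and 4 lower (Lmna, Trim28, Atrx and Cbx1) (lower members: 7 without WT library 2), with Morc4 2.29-fold higher and Lmna, the nuclear lamin A, at 259 and 239.6 CPM in K36M, against 574 and 479.6 CPM in WT (log2 fold change -1.08 ± 0.08, adjusted p = 1.1e-10). Of 36 SWI/SNF and CHD genes 9 were higher and 4 lower (Chd3, Smarcd3, Smarce1 and Chd9) (higher members: 5 without K36M library 2 and lower members: 2 without K36M library 2), with Chd3, of the NuRD complex, at 42.9 and 39.8 CPM in K36M, against 174 and 167 CPM in WT (log2 fold change -2.04 ± 0.09, adjusted p = 3.07e-14), Chd5, its relative of brain and testis, 3.43-fold higher and Chd2 1.5-fold higher. Of 21 H3K4 genes 8 were higher and 3 lower (Cxxc1, Rbbp5 and Wdr5) (lower members: 1 without WT library 1, 1 without K36M library 1, 0 without K36M library 2), with Ash2l 1.94-fold, Kdm1b 2-fold and Smyd3 1.97-fold higher. Of 28 deacetylases and their partners 7 were higher and 7 lower (lower members: 4 without K36M library 1, 4 without K36M library 2), with Sin3b 2.45-fold higher, and Sirt5 and Hdac7 2.45-fold and 2.09-fold lower.

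The remaining lists showed no shared direction. Of 37 splicing regulators 15 were lower and 10 higher: Mbnl1, which promotes adult splice forms, had 26.4 and 28.6 CPM in K36M, against 138 and 154 CPM in WT (log2 fold change -2.41 ± 0.09, adjusted p = 1.52e-15). Mbnl3, its X-linked paralog, had 173 and 171 CPM in K36M, against 61.6 and 69.5 CPM in WT (log2 fold change 1.39 ± 0.08, adjusted p = 3.7e-12), and Rbm20, a splicing factor of heart muscle, was 3.21-fold lower. Of 56 cilium genes 15 were lower and 13 higher (higher members: 7 without K36M library 1 and lower members: 8 without K36M library 1), with Ift27 and Bbs7 3.17-fold and 2.91-fold lower and Tmem231, of the transition zone, 2.4-fold higher. Of 22 clock genes 6 were higher and 5 lower (Arntl2, Per2, Nfil3, Npas2 and Nr1d1), with Arntl2 3.17-fold and Per2 2.53-fold lower and Bhlhe41 2.7-fold higher.

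On the X chromosome 35.7% of 566 tested genes were higher and 26.5% lower, with a median log2 fold change of 0.13, beside 28.8% and 26.9% of all genes. Xist, the RNA that coats an inactive X chromosome, and 3 other genes of this paragraph were chosen after their values were seen. Xist (chromosome X, 100655714 to 100678556) had 23.6 and 21.5 CPM in K36M, against 1.55 and 3.63 CPM in WT (log2 fold change 3.14 ± 0.27, adjusted p = 1.47e-09, and log2 fold change 3.86 without WT library 2 and 2.63 without WT library 1). Its antisense partner Tsix, whose reads cannot be told apart from those of Xist without a stated strand setting, had 0.724 and 0.724 CPM in K36M, against 0.0674 and 0.151 CPM in WT and was below the filter. The Y-linked gene Ddx3y had 91.1 and 95.6 CPM in K36M, against 57.9 and 65.8 CPM in WT (log2 fold change 0.59 ± 0.09, adjusted p = 6.78e-06). Zfy1, also Y-linked, had 6.12 and 8.04 CPM in K36M, against 0.472 and 0.68 CPM in WT (log2 fold change 3.61 ± 0.41, adjusted p = 1.69e-07). Every library therefore held Y-linked transcripts. Among all genes, 75 had at least 1 CPM in both K36M libraries with at most 3 counts in WT, and 107 had at least 1 CPM in both WT libraries with at most 3 counts in K36M. Protein-coding genes were called more often (30.2% higher and 28.2% lower) than lincRNA genes (18.4% and 15.4%), with median log2 fold changes of 0.03 and 0.23. These classes were not compared at like expression levels, on which the power to call a gene depends.

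The same contrast under TGF-beta differed in size for many genes. There, K36M against WT called 11098 genes (70.3%), and the genotype difference itself differed between the media for 8055 genes (51.0%) by the interaction test. Of all genes tested, 5724 (36.3%) were called in the same direction in both media, and 1285 (8.14%) were called in opposite directions with the interaction called. The comparisons share no library. Most Hox genes were lower in both media, with 27 of 33 lower and 1 higher under Repsox, 26 lower and 4 higher under TGF-beta, and medians of -2.80 and -2.04. Germline genes were higher in both, 39 of 47 under Repsox, with 0 lower, and 42 of 47 under TGF-beta, with 1 lower, and with medians of 2.86 and 4.44. Mitosis genes had 51 of 62 higher under Repsox with a median of 0.47, and 62 of 62 under TGF-beta with a median of 2.90. The ribosome biogenesis list had 30 of 40 lower and 0 higher under Repsox, against 15 lower and 8 higher under TGF-beta. Serine, folate and one-carbon genes had 17 of 26 lower and 3 higher under Repsox, against 6 lower and 16 higher under TGF-beta. Among single genes, Slc16a3 had a log2 fold change of 2.09 under Repsox and 6.47 under TGF-beta (difference of log2 fold changes 4.38 ± 0.16, adjusted p = 2.06e-15), and P4ha2 had 2.38 under Repsox and 0.38 under TGF-beta (adjusted p of the interaction 1.84e-09). Zfp42 had a log2 fold change of 2.52 under Repsox and 7.21 under TGF-beta (difference of log2 fold changes 4.69 ± 0.75, adjusted p = 1.79e-05). Dnmt3b had -0.08 under Repsox and 4.54 under TGF-beta (difference of log2 fold changes 4.61 ± 0.16, adjusted p = 5.61e-16).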

How the data were processed

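RNA was depleted of ribosomal RNA before sequencing, per the labels' protocols. The authors deposited unnormalized counts, as whole numbers of reads for each gene. The submitters' processing notes name mm9, edgeR, STAR 2.5.0 and HTSeq 0.11.2. The role of edgeR, the annotation and the strand setting were not given in these sources, so reads of overlapping, antisense or near-identical genes could not be assigned with certainty. From these counts, edgeR 4.0.16 in R 4.3.3 (filterByExpr, TMM factors of 0.894 to 1.057, quasi-likelihood F test) was fitted to 4 group means over 8 libraries, with 4 residual and 17.5 prior degrees of freedom and a common biological coefficient of variation of 0.07. The estimated error can understate the spread of a gene whose 2 libraries differ widely. The threshold was 0.05 on p-values adjusted by Benjamini-Hochberg. CPM used TMM-scaled library sizes. Libraries of a group differed by more than counting error, with a chi-square per degree of freedom of 2.70 in K36M and 9.09 in WT under Repsox. With at most 3 counts in a group, the ratio is given with an exact 95% interval that covers counting error only. The fit was also run on counts simulated from its own dispersions, with few genes changed. That run checked the code and does not measure the error in these data.

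Lists were described by counts and medians, with no test of the list. The 76 lists, 3 context lists, the rule for named genes and the comparison were chosen with earlier results of these data known. The rule took, among called genes whose libraries did not overlap, the 15 largest changes by fold and 10 by CPM in each direction (average log2 CPM of at least 4), and from each list the 3 largest called changes (average log2 CPM of at least 2). It left out the fibroblast, interferon and epithelial lists, unnamed loci and histone cluster genes, and some genes it took are not reported here. The factors, H3.3 genes, Nanog, Tgfbr1 and chosen chromatin enzymes were followed in any case. Coordinates are from GENCODE vM1. DESeq2, limma-voom, other scalings and filters, the 4 Repsox libraries alone and each library left out in turn were tried as alternatives.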

Additional observations from a re-analysis of the deposited data

Results flagged for a closer look

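The genotype difference differed between the media for 8055 genes by the interaction test. Of the genes taken by the rule and those chosen after their values were seen (Ddx3y among these), 14 described here were called in both media in opposite directions with the interaction called, and are given as the log2 fold change of K36M over WT under Repsox, that under TGF-beta, and the TGF-beta value minus the Repsox value.

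Higher in K36M under Repsox and lower in K36M under TGF-beta were 6 genes. Cubn had 3.05 under Repsox and -2.69 under TGF-beta (difference -5.74, adjusted p = 6.89e-14). Cd82 had 2.04 under Repsox and -1.14 under TGF-beta (difference -3.17, adjusted p = 1.21e-08) and Itga5 had 1.14 under Repsox and -1.34 under TGF-beta (difference -2.47, adjusted p = 4.75e-12). Ddx3y had 0.59 under Repsox and -0.57 under TGF-beta (difference -1.16, adjusted p = 8.65e-08) and Atp6v1d had 0.77 under Repsox and -0.36 under TGF-beta (difference -1.12, adjusted p = 6.3e-08). Myh9 had 0.39 under Repsox and -0.50 under TGF-beta (difference -0.88, adjusted p = 3.59e-08).

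Lower in K36M under Repsox and higher in K36M under TGF-beta were 8 genes. Crabp1 had -3.60 under Repsox and 3.01 under TGF-beta (difference 6.62, adjusted p = 5.8e-16) and Tfap2a had -3.49 under Repsox and 1.03 under TGF-beta (difference 4.52, adjusted p = 2.56e-09). Nkd2 had -2.98 under Repsox and 1.22 under TGF-beta (difference 4.21, adjusted p = 2.63e-08) and Sox6 had -1.96 under Repsox and 1.61 under TGF-beta (difference 3.57, adjusted p = 1.97e-07). Apobec1 had -0.98 under Repsox and 1.88 under TGF-beta (difference 2.86, adjusted p = 6.09e-09) and Arntl2 had -1.67 under Repsox and 1.10 under TGF-beta (difference 2.77, adjusted p = 1.59e-11). Per2 had -1.34 under Repsox and 0.62 under TGF-beta (difference 1.96, adjusted p = 2.41e-05) and Eef1a1 had -0.16 under Repsox and 0.11 under TGF-beta (difference 0.27, adjusted p = 0.000888).

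No group had enough libraries for a test of single outlying values.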

How the results depend on the processing

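Under 12 alternatives the number of genes higher in K36M under Repsox ran from 3624 to 4682 and the number lower from 3541 to 4611, against 4551 and 4254, and neither moved by more than 1.5 times. The replicate numbers showed no sign of pairing the libraries: deviations of same-numbered libraries from their group means correlated at 0.03 between K36M and WT under Repsox. The fit with the replicate block gave 4594 higher and 4286 lower. A low correlation over all genes cannot settle whether same-numbered libraries share an embryo or a culture. With single libraries left out, the counts were 3624 to 4441 higher and 3541 to 4134 lower. Scaling by total counts alone moved the median log2 fold change of all genes to 0.01 and gave 49.6% of calls higher, against 51.7%. The number of genes whose genotype difference differed between the media stayed within 1.5 times of 8055 under each alternative that holds both media. No named gene reversed. Counts of list members that moved by more than 1.5 times when a library was left out stand in the report. With total counts alone as scaling the counts that moved were cholesterol synthesis lower 2 against 1, mitosis lower 2 against 0. With no filter beyond a summed count of 1 the counts that moved were cleavage stage and Zscan4 higher 2 against 1, endothelial and blood lower 4 against 2, respiratory chain complex I lower 4 against 2, glutathione and NRF2 higher 5 against 9, cytosolic ribosomal proteins lower 25 against 15, mitochondrial ribosome higher 4 against 7, mitosis lower 3 against 0. With a filter of 1 CPM in 4 libraries the counts that moved were cancer-testis families on X higher 7 against 11, Sox factors higher 1 against 2, potassium channels lower 8 against 14, ABC transporters lower 8 against 13, SWI/SNF and CHD remodellers lower 2 against 4. With DESeq2 the counts that moved were nuclear receptors higher 3 against 5, fatty acid oxidation and peroxisome lower 3 against 5, mitochondrial ribosome higher 4 against 7, DNA methylation and TET higher 5 against 8, SWI/SNF and CHD remodellers lower 2 against 4, H3K4 methylation and demethylation lower 0 against 3, primary cilium higher 8 against 13. With limma-voom the counts that moved were cytosolic ribosomal proteins higher 10 against 6, mitosis lower 3 against 0. With the 4 Repsox libraries alone the counts that moved were laminins and basement membrane higher 5 against 8, respiratory chain complex I higher 6 against 10, ATF4 and amino acid response higher 5 against 9, tRNA synthetases higher 1 against 3, mitochondrial ribosome higher 4 against 7, mitosis lower 3 against 0, DNA methylation and TET higher 5 against 8, primary cilium higher 7 against 13. The cause of these moves was not tested. Depth limits genes at a few counts in 1 group, whose fitted folds without 1 library stand beside them in the report.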
